A study of Arabidopsis thaliana with 12 samples.

Results

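The genes described here are the nuclear genes for proteins of the plastid ribosome of Arabidopsis thaliana. They were taken by identifier from a list of 39, of which 13 belong to the small and 26 to the large subunit. Of these, 33 had an entry in at least 1 of the deposited tables, which hold 30572 named genes in the light and det1-1 tables and 30968 in the pifq table. Those of S10, S20, L5, L28, L29 and L34 had none and were not analysed here. Values were compared for 32 members in light, 32 in det1-1 and 30 in pifq. RNA sequencing was run on seedlings, with 12 libraries in 4 groups of 3. All seedlings had 3 days of cold, 12 h of light and then 4 days of darkness. The groups are wild type (Columbia, Col) moved to white light for 6 h, the mutant det1-1 in the dark, the mutant pifq in the dark, and wild type kept in the dark. DET1, a nuclear protein, holds back light-type development without light, and det1-1 is known as a point allele. PIF transcription factors favour growth in the dark, and pifq combines mutations in PIF1, PIF3, PIF4 and PIF5. Both mutants were sampled without a light treatment, so the 12 h of light before the dark period are shared by every group.

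Plastids keep a ribosome of bacterial type. Part of its proteins are encoded in the plastid genome, and the others are encoded in the nucleus, made in the cytosol and imported. The ribosome makes plastid-encoded subunits of the photosystems, of the ATP synthase and of Rubisco, and its number per cell is known to increase as dark-grown plastids turn into chloroplasts. A few subunits, named plastid-specific ribosomal proteins (PSRP), have no counterpart or only distant ones in the ribosome of Escherichia coli.

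Each deposited table gives the authors' FPKM, fragments scaled by transcript length and by the mapped total, as a single value per gene and group. The tables hold no values per library, no read counts and no p-values. The depth is therefore unknown, no spread between the libraries accompanies a value, and no difference given here has a replicate check. A gene is called higher or lower where its FPKM in a table differed from that of dark wild type by at least 2-fold; this is a rule of size and not a test. Comparisons were made for genes with a single entry and a deposited log2 ratio other than 0, above 0 in both groups and reaching 1 FPKM in 1 of them. A deposited ratio of exactly 0 was taken to mean that the authors' program had made no comparison, which the headers do not state. In bulk seedlings, more cells of a type and more RNA per cell cannot be told apart. As a check of the labels, PIF3 was 0.802 FPKM in pifq, against 30.2 FPKM in dark wild type; DET1 was 16.7 FPKM in det1-1, against 15.1 FPKM in dark wild type, and a point allele need not lower its transcript.

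Most transcripts for plastid ribosomal proteins were at least 2-fold higher in the dark mutants than in dark wild type, and fewer were after 6 h of light. In det1-1, 29 of 32 were at least 2-fold higher and 0 lower, with a median of 3.92-fold. In pifq, 27 of 30 were at least 2-fold higher and 0 lower, with a median of 3.37-fold (log2 1.75). In light, 13 of 32 were at least 2-fold higher and 0 lower, with a median of 1.87-fold; 4 of the others, PSRP1, S5, L12-C and L4, stood below dark wild type. Over all genes compared, 17.9% of 16642 were at least 2-fold higher in det1-1, 13.2% of 17253 in pifq and 12.7% of 17039 in light, and 9.43%, 13.4% and 10.5% were at least 2-fold lower. The median log2 fold of all genes was -0.01, 0.01 and 0.01. The genes of the plastid ribosome are abundant, and among genes of at least 25 FPKM in dark wild type, a background chosen after the values were seen, the shares at least 2-fold higher were 10.7% in det1-1, 5.88% in pifq and 6.81% in light, and the shares lower were 11.3%, 19.2% and 14.1%. With a limit of 1.5-fold, 23 of 32 members were higher and 1 was lower in light, where 22.0% and 20.2% of all genes were.

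The summed FPKM of the members compared was 11020 in det1-1, against 3049 in dark wild type, 8069 in pifq, against 2670, and 5665 in light, against 3400. As a share of the summed FPKM of all named genes, this was 1.17% in det1-1 and 0.356% in dark wild type, 0.809% in pifq and 0.195% in dark wild type, and 0.557% in light and 0.236% in dark wild type. These shares also carry the totals, which differed between tables: the FPKM of all named genes summed to 938000 in det1-1 and 856000 in dark wild type, 998000 in pifq and 1370000 in dark wild type, and 1020000 in light and 1440000 in dark wild type. Some abundant genes are listed at 0 in 1 group, such as RBCS1A (AT1G67090), a Rubisco small subunit gene, at 0 in det1-1, against 3398 FPKM in dark wild type, so the folds rather than the shares are followed here. Whether such a 0 is a measured level cannot be told from these values. The median member stood above 97.2% of the genes compared in det1-1 and above 90.0% in dark wild type. In pifq it stood above 97.6%, against 89.8% in dark wild type, and in light above 94.5%, against 89.9% in dark wild type. The median level was 317 FPKM in det1-1 and 83.4 FPKM in dark wild type. It was 269 FPKM in pifq and 82.8 FPKM in dark wild type, while light seedlings had 165 FPKM, against 91.9 FPKM in dark wild type.

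**Figure D1:**
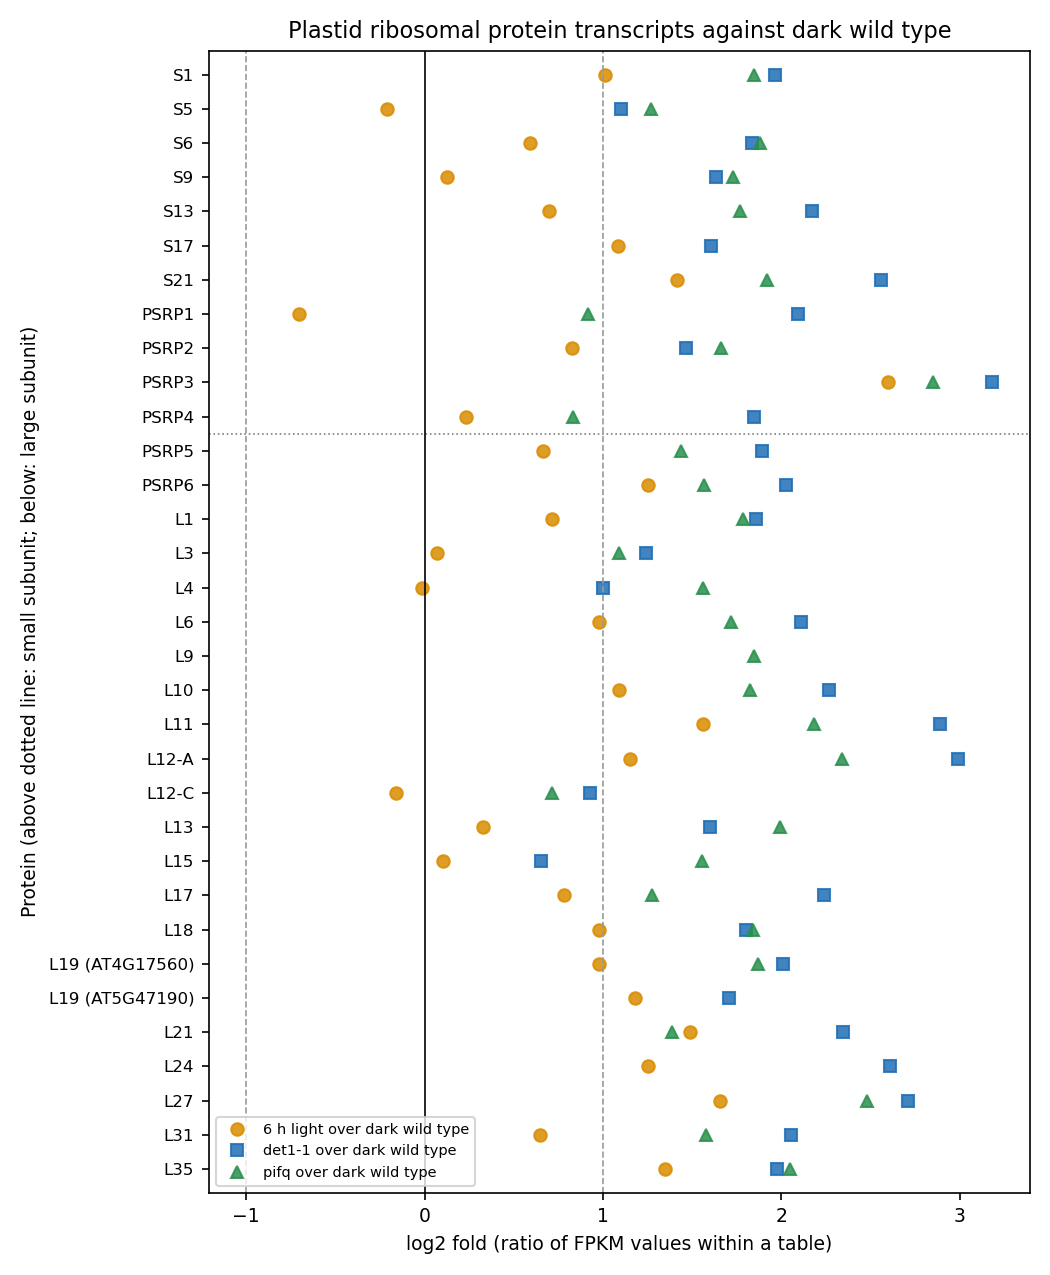
The log2 fold over dark wild type (x axis, from FPKM within a table) is plotted for each plastid ribosomal protein compared (y axis), with circles for 6 h of light, squares for det1-1 and triangles for pifq; dashed lines mark 2-fold. No member lies left of 0 in det1-1 or pifq, while 4 lie left of 0 in light, with PSRP1 at -0.71 and PSRP3 at 2.60 as the ends of the range.

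The SD of log2 FPKM over the members was lower than in dark wild type in each table. It was 0.54 in det1-1 and 0.76 in dark wild type, 0.59 in pifq and 0.79 in dark wild type, and 0.63 in light and 0.76 in dark wild type. Taken by subunit it was also lower, except for the small subunit in light, at 0.89, against 0.87 in dark wild type. For the large subunit in light it was 0.43, against 0.71 in dark wild type. In det1-1 the most abundant member, S17, was 4.35-fold above the least abundant, the L19 gene AT5G47190, while the ends of the range in dark wild type were 6.15-fold apart. In pifq the members compared ran between 92.8 and 437 FPKM, against 25.5 and 255.5 FPKM in dark wild type. S17, at 838 FPKM in pifq, against 321 FPKM in dark wild type, was not compared and lies outside both ranges. The lowest dark values there, 25.5 FPKM for the L19 gene AT4G17560 and 25.6 FPKM for L11, were 49.9 and 49.3 FPKM in the light table. In light the ends of the range were 10.3-fold apart, against 6.99-fold in dark wild type. The wide range in light came from PSRP1 at its lower and S17 at its upper end.

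**Figure D2:**
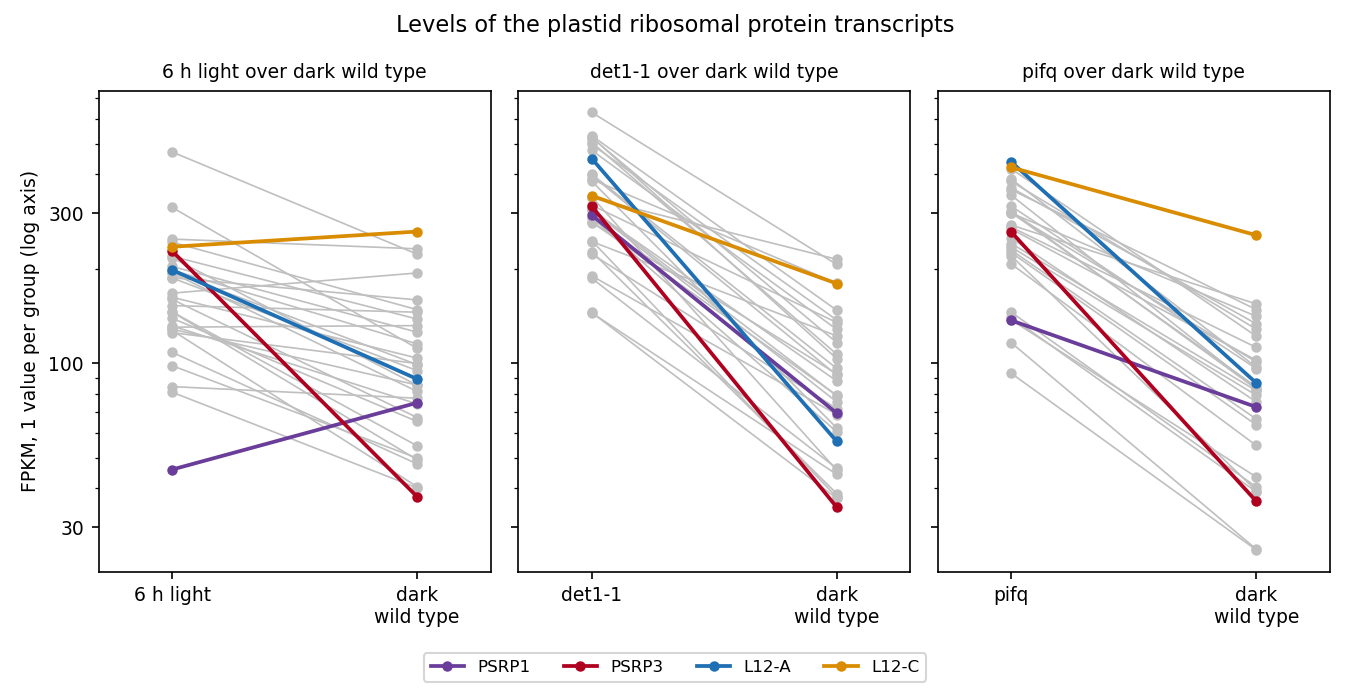
FPKM per group (y axis, log scale) is drawn for each member, 1 panel per table, with the condition on the left and dark wild type on the right of each line. PSRP3, PSRP1 and the pair L12-A and L12-C are in colour; PSRP1 is the lowest member in light, at 45.9 FPKM, and L12-A and L12-C lie close together in pifq, at 437 and 420 FPKM.

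PSRP3 had the largest fold of all members in each comparison. This gene (PSRP3/1, AT1G68590, chromosome 1, 25757404 to 25758411, minus strand of TAIR10.1) encodes a small-subunit protein related to Ycf65, which red algae and cyanobacteria also carry. It was 316 FPKM in det1-1, against 34.8 FPKM in dark wild type, a 9.08-fold difference. It was 262 FPKM in pifq, against 36.4 FPKM in dark wild type, while light seedlings had 227.5 FPKM, against 37.6 FPKM in dark wild type, differences of 7.20-fold and 6.06-fold. It was the least abundant member in dark wild type of the light and det1-1 tables and near the median of the members in det1-1 and pifq. The paralogue AT5G15760 had several entries in the pifq table and was not analysed.

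PSRP1 was the only member below dark wild type by more than 1.5-fold in any comparison. PSRP1 (AT5G24490, chromosome 5, 8365601 to 8367460, plus strand) is related to bacterial factors that hold ribosomes in an inactive state, known from E. coli, and is not thought to be a structural part of the translating ribosome. It was 45.9 FPKM in light, against 74.8 FPKM in dark wild type, a log2 fold of -0.71. In det1-1 it was 296 FPKM, against 69.3 FPKM in dark wild type, 4.27-fold higher. In pifq it was 137 FPKM, against 72.5 FPKM in dark wild type, 1.89-fold higher and under the 2-fold rule. Its log2 fold in det1-1 exceeded that in light by 2.80, the largest such difference of any member, and that in pifq by 1.18. These comparisons share the dark wild type, and the differences between their folds could not be tested.

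Among the other plastid-specific proteins, PSRP2 (AT3G52150), which carries RNA-recognition motifs, was 190 FPKM in det1-1, against 68.6 FPKM in dark wild type, 137 FPKM in pifq, against 43.4 FPKM, with 131 FPKM in light, against 74.2 FPKM. PSRP4 (AT2G38140), a small basic protein of the small subunit, was 530 FPKM in det1-1, against 147 FPKM in dark wild type, 275 FPKM in pifq, against 154 FPKM, with 187 FPKM in light, against 159 FPKM. It was thus 3.60-fold higher in det1-1, but 1.78-fold in pifq and 1.18-fold in light. The large-subunit protein PSRP5 (AT3G56910) was 3.72-fold higher in det1-1, 2.71-fold in pifq and 1.58-fold in light. PSRP6 (AT5G17870), also of the large subunit, was 4.07-fold, 2.96-fold and 2.38-fold higher. Of the 6 plastid-specific genes, 6 were at least 2-fold higher in det1-1, 4 in pifq and 2 in light.

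The promoter windows of 3 members with large folds and of the 2 lowest in light are printed because these genes lie at the ends of the range of folds; which windows to print and which motifs to mark were chosen after the values and motif counts were known. Each runs from 250 bases before to 50 bases after the start of the RefSeq gene model, 5′ to 3′ on the strand of the gene. The capitals mark GATAA (I-box core), TGGGCC and TGGGCT (site II elements) and AAACCCTA (telo box), each on either strand. PSRP3 (chr1:25758362-25758661, minus strand), L11 (chr1:11955406-11955705, plus strand) and L27 (chr5:16410532-16410831, plus strand) had large folds in all comparisons. PSRP1 (chr5:8365351-8365650, plus strand) and S5 (chr2:14302447-14302746, minus strand) were the lowest in light.
PSRP3: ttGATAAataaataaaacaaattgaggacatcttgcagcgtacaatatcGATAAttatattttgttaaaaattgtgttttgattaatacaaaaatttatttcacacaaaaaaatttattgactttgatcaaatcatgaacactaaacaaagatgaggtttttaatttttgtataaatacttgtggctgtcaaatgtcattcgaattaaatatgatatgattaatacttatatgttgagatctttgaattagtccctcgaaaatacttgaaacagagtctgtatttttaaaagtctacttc
L11: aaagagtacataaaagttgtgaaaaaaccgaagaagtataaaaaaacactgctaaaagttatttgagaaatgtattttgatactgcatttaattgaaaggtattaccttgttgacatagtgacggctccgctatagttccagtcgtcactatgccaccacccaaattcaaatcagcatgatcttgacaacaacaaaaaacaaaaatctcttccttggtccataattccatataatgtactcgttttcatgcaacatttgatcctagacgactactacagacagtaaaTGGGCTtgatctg
L27: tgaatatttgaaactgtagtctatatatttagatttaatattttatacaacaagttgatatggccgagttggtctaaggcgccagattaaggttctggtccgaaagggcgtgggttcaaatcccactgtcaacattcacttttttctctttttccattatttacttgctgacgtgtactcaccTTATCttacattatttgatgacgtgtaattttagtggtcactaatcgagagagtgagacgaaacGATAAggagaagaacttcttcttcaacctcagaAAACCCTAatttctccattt
PSRP1: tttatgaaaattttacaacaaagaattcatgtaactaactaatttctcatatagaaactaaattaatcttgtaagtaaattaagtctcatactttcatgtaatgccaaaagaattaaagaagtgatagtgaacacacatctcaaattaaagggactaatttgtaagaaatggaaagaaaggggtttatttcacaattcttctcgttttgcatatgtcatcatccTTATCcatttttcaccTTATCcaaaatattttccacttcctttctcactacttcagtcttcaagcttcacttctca
S5: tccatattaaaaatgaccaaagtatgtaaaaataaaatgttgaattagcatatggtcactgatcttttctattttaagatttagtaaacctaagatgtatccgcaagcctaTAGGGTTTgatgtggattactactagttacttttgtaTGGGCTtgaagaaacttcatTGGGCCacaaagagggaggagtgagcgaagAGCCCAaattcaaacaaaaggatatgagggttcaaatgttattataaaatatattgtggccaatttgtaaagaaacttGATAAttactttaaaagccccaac

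PSRP3 and PSRP1, the ends of the range in light, each held GATAA 2 times and none of the site II or telo box letters. L11 held 1 TGGGCT and no GATAA. S5 held 1 GATAA, 1 TGGGCC, 2 TGGGCT and 1 AAACCCTA. The L27 window held 2 GATAA and 1 AAACCCTA, and an annotated tRNA-Leu gene lies in it on the same strand. GATAA was found in 33 of the 39 member windows (84.6%) and in 60.8% of the windows of 27443 protein-coding genes. TGGGCC was found in 13 (33.3%) against 15.5%, TGGGCT in 13 (33.3%) against 14.2%, AAACCCTA in 5 (12.8%) against 6.2%, and the G-box CACGTG, whose letters PIFs and HY5 are known to bind, in 4 (10.3%) against 7.7%. The ACGT core, which the G-box contains, was found in 21 (53.8%) against 49.9%, and CCAATC in 5 (12.8%) against 12.3%. These are matches of letters and show neither binding nor its absence.

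The proteins of the factor-binding region of the large subunit differed among themselves. In E. coli, L10 and L12 form the stalk that recruits translation factors, and L11 lies at its base. L11 (AT1G32990, PRPL11) was 339 FPKM in det1-1, against 45.7 FPKM in dark wild type, 7.41-fold higher. It was 116 FPKM in pifq, against 25.6 FPKM, with 145.5 FPKM in light, against 49.3 FPKM, 4.54-fold and 2.95-fold higher. L10 (AT5G13510) was 4.81-fold higher in det1-1, 3.53-fold in pifq and 2.13-fold in light. L12 is made from tandem genes on chromosome 3, L12-A (AT3G27830, 10318455 to 10319920) and L12-C (AT3G27850, 10324788 to 10325746), both on the plus strand.

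The members of the L12 pair had unlike folds. L12-A was 448 FPKM in det1-1, against 56.4 FPKM in dark wild type, 437 FPKM in pifq, against 86.5 FPKM, with 198 FPKM in light, against 89.0 FPKM. L12-C was 341 FPKM in det1-1, against 179 FPKM in dark wild type, 420 FPKM in pifq, against 255.5 FPKM, with 235 FPKM in light, against 262 FPKM. L12-A was therefore 7.95-fold, 5.05-fold and 2.22-fold higher, while L12-C stayed under 2-fold, at 1.90-fold, 1.64-fold and 0.894-fold. L12-A held 56.8% of the pair's summed FPKM in det1-1 and 23.9% in dark wild type, 51.0% in pifq and 25.3% in dark wild type, and 45.8% in light and 25.3% in dark wild type. The sum of the pair was 3.35-fold higher in det1-1, 2.50-fold in pifq and 1.23-fold in light. The dark wild type sum was 235.7 FPKM beside det1-1, but 342.0 FPKM beside pifq and 351.4 FPKM beside light. With the tables scaled by the median ratio over genes, dark L12-A was 60.8 FPKM beside det1-1, against 89.0 FPKM beside light. For L12-C these values were 193.5 and 262.4 FPKM. The det1-1 folds of both genes and of their sum thus rest on lower dark values. Their size, and their order against pifq, is uncertain. The split between these genes is uncertain, since 22.1% of the 32-base stretches in the exons of L12-A and 29.6% in those of L12-C occur elsewhere in the genome, and how such reads were counted is not stated by the labels. The third gene of the cluster, L12-B (AT3G27840), was listed at 0 in both groups of all 3 tables.

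The windows upstream of L12-A (chr3:10318205-10318504, plus strand) and L12-C (chr3:10324538-10324837, plus strand) are shown because the genes are a tandem pair with different folds. The capitals mark the longest stretch that they share, 75 bases, which holds an annotated tRNA-Pro gene in each window on the strand of the gene.
L12-A: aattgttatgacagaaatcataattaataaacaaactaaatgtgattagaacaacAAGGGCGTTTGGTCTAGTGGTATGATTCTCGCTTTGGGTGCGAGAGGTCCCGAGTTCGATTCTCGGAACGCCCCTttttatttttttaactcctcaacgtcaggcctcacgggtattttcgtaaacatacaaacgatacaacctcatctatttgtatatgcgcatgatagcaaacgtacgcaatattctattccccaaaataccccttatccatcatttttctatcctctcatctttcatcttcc
L12-C: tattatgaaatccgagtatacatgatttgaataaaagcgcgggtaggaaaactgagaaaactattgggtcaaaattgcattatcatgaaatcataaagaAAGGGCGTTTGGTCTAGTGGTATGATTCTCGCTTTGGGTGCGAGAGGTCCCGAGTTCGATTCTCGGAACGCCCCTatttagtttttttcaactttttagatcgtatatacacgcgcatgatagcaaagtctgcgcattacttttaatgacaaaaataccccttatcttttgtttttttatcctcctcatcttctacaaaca

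Neither window holds a G-box, a telo box or a site II element. Each holds GATAA, 1 time upstream of L12-A and 3 times upstream of L12-C. The ACGT core was found 2 times upstream of L12-A and 0 times upstream of L12-C.

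Among proteins around the peptidyl transferase centre and the exit tunnel, L27 was high and L3 low in fold. L4 was low in det1-1 and light only. L27 (AT5G40950), which in E. coli reaches the peptidyl transferase centre, was 245 FPKM in det1-1, against 37.5 FPKM in dark wild type, 219.5 FPKM in pifq, against 39.3 FPKM, with 127 FPKM in light, against 40.4 FPKM. These are differences of 6.55-fold, 5.58-fold and 3.15-fold. L4 (AT1G07320), which lines the exit tunnel in bacteria, was 244 FPKM in det1-1, against 122 FPKM in dark wild type, just under 2-fold at 1.997. It was 379 FPKM in pifq, against 128 FPKM, 2.95-fold higher, and 130.2 FPKM in light, against 132 FPKM. L3 (AT2G43030), an early assembly protein near the same centre in bacteria, was 318 FPKM in det1-1, against 135 FPKM, 300.3 FPKM in pifq, against 141 FPKM, with 152.5 FPKM in light, against 145 FPKM. L4 and L3 thus stood at or near the dark level after 6 h of light, with log2 folds of -0.02 and 0.07. L24 (AT5G54600), an assembly initiator in E. coli, was 6.10-fold higher in det1-1 and 2.38-fold in light, and had no entry in the pifq table used here. L17 (AT3G54210), at the tunnel exit, was 505 FPKM in det1-1, against 107 FPKM, 271 FPKM in pifq, against 112 FPKM, with 198 FPKM in light, against 115 FPKM.

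L21, L35, L13, L6, L31 and L18 were between 3.03-fold and 5.08-fold higher in det1-1. L21 (AT1G35680) was 525 FPKM in det1-1, against 103 FPKM in dark wild type, 267.5 FPKM in pifq, against 102 FPKM, with 313 FPKM in light, against 111.5 FPKM. It was the only member compared in both whose fold in light, 2.81-fold, exceeded that in pifq, 2.62-fold. L35 (AT2G24090) was 3.93-fold higher in det1-1, 4.14-fold in pifq and 2.55-fold in light. L13 (AT1G78630), an early assembly protein in E. coli, was 3.03-fold, 3.97-fold and 1.25-fold. The folds of L6 (AT1G05190) were 4.32, 3.29 and 1.97, those of L31 (AT1G75350) 4.15, 2.98 and 1.56, and those of L18 (AT1G48350), which binds the small ribosomal RNA of the large subunit in bacteria, 3.49, 3.58 and 1.97, in det1-1, pifq and light. L9 (AT3G44890) had an entry in the pifq table only, at 145 FPKM in pifq, against 40.4 FPKM in dark wild type.

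Both paralogous L19 genes stood above dark wild type where they were compared. AT4G17560 was 186 FPKM in det1-1, against 46.3 FPKM in dark wild type, while light seedlings had 98.2 FPKM, against 49.9 FPKM. AT5G47190 was 145 FPKM in det1-1, against 44.3 FPKM in dark wild type, while light seedlings had 108 FPKM, against 47.8 FPKM. The folds were 4.03 and 3.27 in det1-1, and 1.97 and 2.27 in light, so that the 2-fold rule calls only AT5G47190 higher in light. In pifq, AT4G17560 was 92.8 FPKM, against 25.5 FPKM in dark wild type; AT5G47190 had more than 1 entry there and was not compared. Shared sequence is small for both, at 0.9% and 1.2% of 32-base stretches.

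In the small subunit, 11 of 11 genes compared were at least 2-fold higher in det1-1, 8 of 10 in pifq and 4 of 11 in light, with median log2 folds of 1.85, 1.75 and 0.70. In the large subunit these were 18 of 21, 19 of 20 and 9 of 21, with medians of 2.01, 1.75 and 0.98. S21 (AT3G27160, GHS1, named for a glucose-hypersensitive mutant) was 227 FPKM in det1-1, against 38.5 FPKM in dark wild type, 207 FPKM in pifq, against 54.7 FPKM, with 146 FPKM in light, against 54.6 FPKM. Its folds of 5.89, 3.78 and 2.67 were the largest of the small subunit after PSRP3, and 13.7% of its exonic 32-base stretches occur elsewhere. With the tables scaled by the median ratio over genes, its dark value was 41.5 FPKM beside det1-1. It was 56.3 FPKM beside pifq and 54.6 FPKM beside light. The S21 fold in det1-1, and its rank over S13 at 4.50-fold there, thus rest on a lower dark value and are uncertain. S1 (AT5G30510), which binds messenger RNA in E. coli, was 145 FPKM in det1-1, against 37.1 FPKM in dark wild type, 140.1 FPKM in pifq, against 39.0 FPKM, with 80.8 FPKM in light, against 40.1 FPKM. At 2.02-fold it was the member just inside the rule in light, with L6, L18 and the L19 gene AT4G17560 just outside it at 1.97-fold.

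S13 (AT5G14320), which bridges the subunits in bacteria, was 4.50-fold higher in det1-1, 3.41-fold in pifq and 1.62-fold in light. S17 (AT1G79850), the most abundant member in det1-1 and in light, was 628.5 FPKM in det1-1, against 206 FPKM in dark wild type, while light seedlings had 470.3 FPKM, against 222 FPKM. S6 (AT1G64510) had folds of 3.57, 3.68 and 1.51 in det1-1, pifq and light, and S9 (AT1G74970) of 3.10, 3.32 and 1.09. S5 (AT2G33800), which helps to keep decoding accurate in E. coli, was 385 FPKM in det1-1, against 179.5 FPKM in dark wild type, 356.5 FPKM in pifq, against 148 FPKM, with 167 FPKM in light, against 194 FPKM. It was 2.14-fold and 2.41-fold higher in the mutants and 0.863-fold in light. After scaling, its dark value was 193.7 FPKM beside det1-1 and 152.5 FPKM beside pifq, so the order of the mutants is uncertain.

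The dark wild type is given in all 3 tables, and its values for the same gene allow a check. After each table was scaled to the light table by the median ratio over genes, 20 of the 32 members with single entries in at least 2 tables lay within 2% of each other. The values of 5 lay more than 1.5-fold apart: PSRP2, L1, L11, L15 and the L19 gene AT4G17560, all lower in the pifq table. L15 (AT3G25920) was the most discordant. It was 336 FPKM in det1-1, against 214 FPKM in dark wild type, 240.3 FPKM in pifq, against 81.8 FPKM, with 248 FPKM in light, against 231 FPKM. Its log2 fold of 0.65 in det1-1 was the lowest of any member there, while that in pifq was 1.56. L1 (AT3G63490), the protein of the mobile stalk at the exit site in bacteria, was 497 FPKM in det1-1, against 137 FPKM, 229 FPKM in pifq, against 66.4 FPKM, with 243 FPKM in light, against 148 FPKM. Of these 5 genes, 2 (L15 and L1) overlap another annotated gene in TAIR10.1, as do 16 of the 39 members in all; the part of overlaps in these values was not tested. S21, L12-A and L12-C, the members with the most shared sequence, were those whose dark wild type differed between the det1-1 and light tables.

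**Figure D3:**
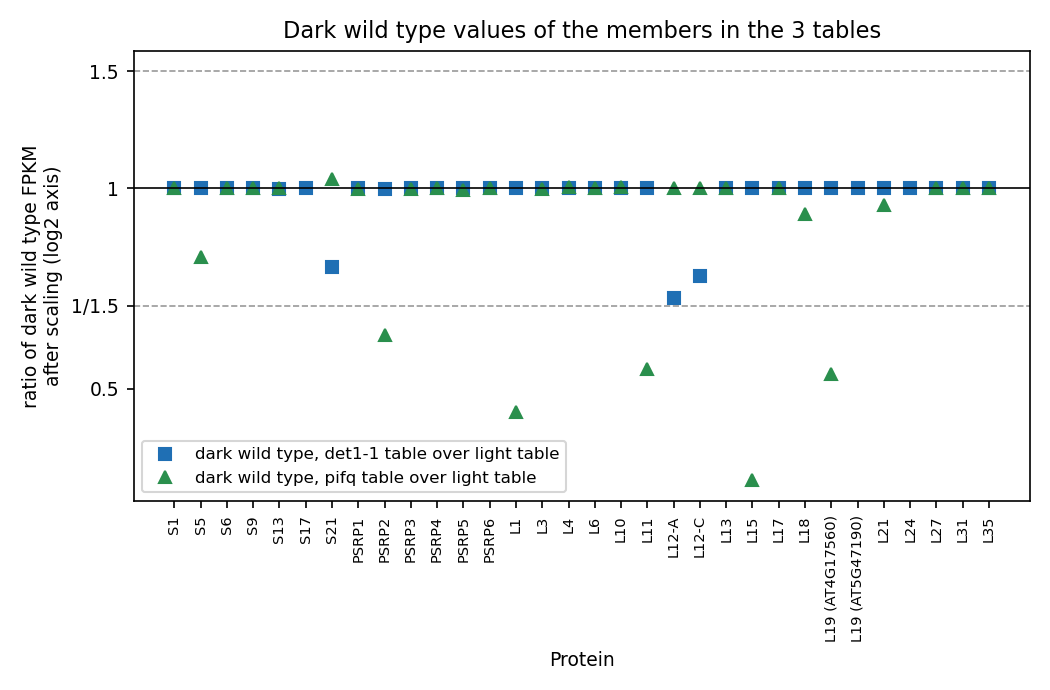
The ratio of dark wild type FPKM in the det1-1 table (squares) or the pifq table (triangles) to that in the light table, after scaling, is plotted on a log2 axis for each member; dashed lines mark 1.5-fold. L15, L1, L11, PSRP2 and the L19 gene AT4G17560 fall under the lower line in the pifq table, and S21, L12-A and L12-C lie below 1 in the det1-1 table. S17, L24 and the L19 gene AT5G47190 have no triangle, since they were not compared in the pifq table.

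Set side by side, the log2 fold was larger in det1-1 than in light for all 32 members compared in both, with a median difference of 1.14, and for 51.3% of all 16167 genes. It was larger in pifq than in light for 28 of 29 members, with a median difference of 0.86, and for 51.5% of 15211 genes. Between the mutants it was larger in pifq for 9 of 29 members and in det1-1 for 20, with a median difference, pifq minus det1-1, of -0.23. Over all 14798 genes it was larger in pifq for 49.2%, with a median difference of -0.01. L15, L4, S5, PSRP2 and L18 were among those with the larger fold in pifq. After scaling, the dark wild type of L15 was 84.2 FPKM beside pifq, against 231 FPKM beside light. That of S5 was 152.5 FPKM beside pifq and 193.7 FPKM beside det1-1. For PSRP2 these values were 44.7 and 74.1 FPKM, and for L18 86.6 and 94.7 FPKM. The order of the mutants for L15, S5, PSRP2 and L18 is therefore uncertain. The dark values of the others, L4, S6, S9, L13 and L35, were close between tables. PSRP1, PSRP4 and L17 were among those with the larger fold in det1-1. So were S21, L12-A and L12-C, whose dark wild type was lower in the det1-1 table. All 3 comparisons share the dark wild type libraries, and these differences carry no test.

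Translation factors and assembly factors are the other nuclear-encoded parts of plastid translation listed here. Of 9 translation factors compared in det1-1, 8 were at least 2-fold higher and 0 lower (median log2 1.61), as were 5 of 7 in pifq (1.61) and 5 of 9 in light (1.43). SCO1 (AT1G62750), the plastid elongation factor G, was 205 FPKM in det1-1, against 23.0 FPKM in dark wild type, 112 FPKM in pifq, against 24.2 FPKM, with 127 FPKM in light, against 24.8 FPKM. FUG1 (AT1G17220), plastid initiation factor 2, was 68.2 FPKM in det1-1, against 17.4 FPKM, 83.4 FPKM in pifq, against 17.9 FPKM, with 95.3 FPKM in light, against 18.7 FPKM. In light, SCO1, FUG1 and AT4G11175, annotated with a domain of translation initiation factor IF-1, were 5.11-fold, 5.09-fold and 5.04-fold higher, while the median of the 9 factors was 2.69-fold. AT4G30690 and HCF109 (AT5G36170) stood below dark wild type in light, at 17.69 FPKM, against 24.99 FPKM in dark wild type, and at 17.2 FPKM, against 18.3 FPKM. Of the assembly factors, 7 of 8 were at least 2-fold higher in det1-1, 9 of 11 in pifq and 7 of 10 in light, with none lower and medians of 1.99, 1.49 and 1.17. BPG2 (AT3G57180), a GTPase needed for plastid ribosomal RNA processing, was 8.27 FPKM in det1-1, against 1.61 FPKM in dark wild type, 6.93 FPKM in pifq, against 1.67 FPKM, with 6.21 FPKM in light, against 1.74 FPKM.

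Nuclear photosystem subunits had larger folds than the ribosomal proteins in each comparison, with median log2 folds of 2.84 in det1-1, 3.47 in pifq and 2.08 in light, and with 20 of 20, 20 of 20 and 18 of 21 at least 2-fold higher. Proteins associated with the plastid RNA polymerase had medians of 1.69, 1.56 and 0.96, with 9 of 11, 13 of 15 and 5 of 11 at least 2-fold higher. The order of det1-1 and pifq was thus not the same for photosystem subunits, higher in pifq, as for plastid ribosomal proteins, higher in det1-1; this difference was not tested.

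**Figure D4:**
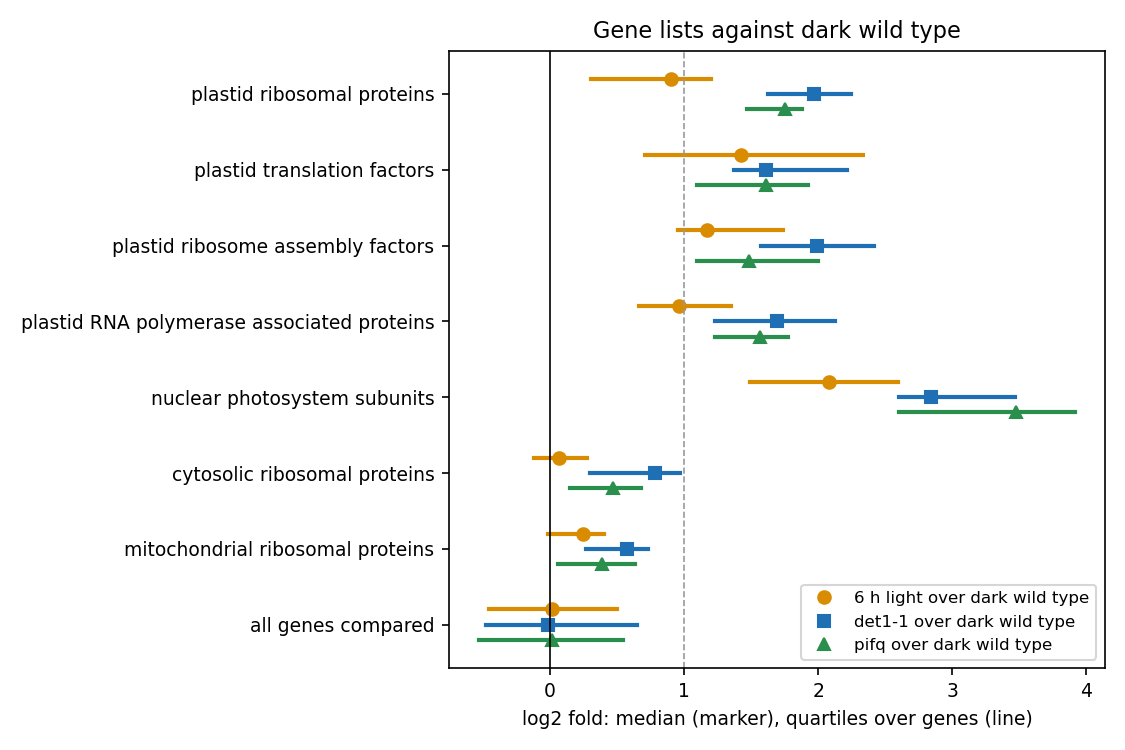
The median log2 fold over dark wild type (marker) and the quartiles over genes (line) are plotted for each gene list and for all genes compared, with circles for 6 h of light, squares for det1-1 and triangles for pifq. The plastid ribosomal proteins lie at 0.90, 1.97 and 1.75, the cytosolic ones at 0.07, 0.78 and 0.47, and all genes close to 0.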

How the data were processed

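Transcript levels were measured in 12 libraries. The authors deposited 3 tables, each with FPKM for 1 condition and for dark wild type, and the log2 ratio of both values per the file headers. The headers do not name the unit, which was taken from Cufflinks and the values. Per the submitters' processing notes, reads went through TopHat and Cufflinks on TAIR10; no version, strand or annotation is stated there.

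Log2 folds were computed here from the FPKM with no pseudocount. For the genes compared, they differed from the deposited log2 values by at most 0.0074. No test was run, since the tables used here hold no values per library. Genes without a name (291, 291 and 231 entries in the light, det1-1 and pifq tables) and with several entries (533, 533 and 523 genes) were left out. So were 247, 361 and 308 genes with a single entry and a level in both groups, taken as not compared by the authors' program. For these the deposited log2 values were not reproduced. Members and lists were chosen with earlier results of these data known; named are all members compared, and up to 3 genes of other lists. Cytosolic and mitochondrial ribosomal proteins were taken by the wording of the RefSeq annotation. Plastid-encoded genes carry identifiers only, since the annotation pairs no names with them. Chosen after values were seen were that wording, the 25 FPKM background, the limits of 5% repeated sequence, 2% for dark wild type and 0.1 log2 for a moved median, and the promoters printed; the motifs in capitals were chosen after all 7 had been counted, with GATAA in place of the G-box. Gene models and sequences are from RefSeq, TAIR10.1 (the tables give no coordinates), read with pysam 0.24.0; Python 3.11.15 and pandas 2.3.3 did the rest. Counting was tested on simulated data.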

Additional observations from a re-analysis of the deposited data

Results flagged for a closer look

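Entries of members outside the comparisons also showed values above dark wild type. S17 was 838 FPKM in pifq, against 321 FPKM in dark wild type. Its deposited log2 ratio did not match these values and was taken as no comparison by the authors' program. The fold of 2.61 was therefore not counted. The L19 gene AT5G47190 had 2 entries in the pifq table, of 111.8 FPKM in pifq, against 40.3 FPKM in dark wild type, and of 3.27 FPKM in pifq, against 0.0576 FPKM in dark wild type. With these included, 29 of 32 members were at least 2-fold higher in pifq.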

How the results depend on the processing

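No paired analysis was possible because the tables hold 1 value per group, and neither a replicate block nor leaving out replicates was run for the same reason. Each count and median was recomputed with 1 or 5 FPKM added to both groups, a minimum of 5 FPKM or none, centring on the median of all genes, the deposited log2 values, without members of repeated sequence, and with dark wild type within 1.5-fold over the tables. Under these the counts stayed within 1.5 times those reported and the medians within 0.1 log2. The other minimum levels and the deposited log2 values could not move them. All members compared lay well above 5 FPKM, and the deposited values are ratios of the same FPKM. With 1.5-fold as the call, 23 members were higher and 1 (PSRP1) lower in light, where 22.0% of all genes were higher. With 1 FPKM added, S1 was under 2-fold in light; centring brought L4 in det1-1 over it. Including entries not compared or with several, added after the data had been seen, 29 of 32 members were higher in pifq and the median was 1.72. Depth is unknown, so the precision of any value cannot be stated.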

Other observations

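Ribosomal proteins of the other compartments had smaller folds than those of plastids. Of the genes that the annotation words as cytosolic, 5 of 20 were at least 2-fold higher and 1 lower in det1-1, 3 of 21 higher and 1 lower in pifq, and 0 of 20 higher or lower in light, with median log2 folds of 0.78, 0.47 and 0.07. Over all genes compared, 17.9% were at least 2-fold higher in det1-1, 13.2% in pifq and 12.7% in light, and 9.43%, 13.4% and 10.5% were lower. The 3 of 21 in pifq thus lies near the share of all genes. RPL23AA (AT2G39460), of the large subunit, was 382 FPKM in det1-1, against 119 FPKM in dark wild type. In pifq it was 274 FPKM, against 125 FPKM. The gene lower in det1-1 was AT5G02440, at 12.5 FPKM, against 41.7 FPKM in dark wild type. Of the mitochondrial ones, 1 of 11 was at least 2-fold higher in det1-1, 1 of 10 in pifq and 0 of 11 in light, with medians of 0.57, 0.39 and 0.25. That gene was AT3G59650, at 14.5 FPKM in det1-1, against 6.45 FPKM in dark wild type, while pifq seedlings had 13.9 FPKM, against 6.77 FPKM. The lists hold only genes whose annotation states the compartment, 31 and 14 genes, and differences between lists were not tested.

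Of 24 plastid-encoded identifiers listed as ribosomal protein genes, few had values that were compared, and they did not share the direction of the nuclear genes in light. There, 0 of 7 were at least 2-fold higher and 5 were lower, with a median log2 fold of -1.44, where 10.5% of all genes compared were lower. In det1-1, 1 of 2 was higher and 0 lower, and in pifq 0 of 5 were higher or lower, with a median of -0.42. The count in det1-1 leaves out ATCG00065, listed at 0 there, against 14280 FPKM in dark wild type. Whether that 0 is a measured level cannot be told from these values. ATCG01310 was 258 FPKM in light, against 789.5 FPKM in dark wild type. In the pifq table its dark wild type was 1536 FPKM, and that of ATCG01300 was 860 FPKM, against 426.2 FPKM in the light table. ATCG00900 and ATCG01020 were closer, at 591.5 and 4102 FPKM in the light table and 572.3 and 3920 FPKM in the pifq table. The size of the folds of ATCG01310 and ATCG01300 is therefore uncertain. In the det1-1 table ATCG00900, ATCG01240, ATCG01300 and ATCG01310 are listed at 0 in both groups. Dark wild type had 591.5, 591.5, 426.2 and 789.5 FPKM for them in the light table, so a 0 there does not show that the transcript was absent. ATCG00900 and ATCG01240 have the same values in each table, so they are not separate measurements. The counts and medians above for light and pifq hold both of them. The light median of -1.44 is their shared value.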
